A study of Mus musculus with 45 samples.

Results

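Acetylation of histone H3 at lysine 9 (H3K9ac) was examined at 8 genes that mark astrocytes, in hippocampal tissue of tau and CK-p25 mice, which model neurodegeneration. Gfap, Vim, Serpina3n and Cd9 were taken as genes of the reactive state, and Aqp4, Slc1a2, Aldh1l1 and S100b as genes of resting astrocytes. This grouping was set for this report and is not in the sample labels. The members were the H3K9ac domains that overlapped a window around each gene on the mouse build mm9. This rule uses position alone, but the genes were picked with earlier results of these data known. There were 37 such domains of 44165 in the deposited set, 15 in the windows of reactive genes and 22 in those of resting genes. Each domain is called here by its gene and by its number along the chromosome, so that Gfap 3 is the third domain from the low end of the Gfap window.

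Astrocytes take up glutamate and potassium at synapses, line blood vessels with their endfeet and answer damage by a change of state called reactive astrogliosis. In that state they build up intermediate filaments, of which GFAP and vimentin are the best known, and secrete acute-phase proteins such as the serine protease inhibitor encoded by Serpina3n. H3K9ac is found at active promoters and enhancers and usually rises and falls with transcription. None of the 8 genes is used by astrocytes alone: vimentin is also made by vascular cells, and CD9, a tetraspanin of the cell membrane, by oligodendrocytes and microglia.

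The libraries came from chromatin immunoprecipitation and sequencing (ChIP-seq) of whole hippocampus. Mice with the human tau (MAPT) transgene P301S, in which tau aggregates, were set against wild type mice at 2 ages: 2 tau and 3 wild type libraries at 6 months, all female, and 3 and 3 at 11 months, all male. Age and sex thus changed together in the tau series. In double-transgenic CK-p25 mice p25, a truncated activator of the kinase Cdk5, is induced in forebrain neurons, and these females were compared with littermates labelled CK at 2 weeks after induction, aged 3.5 months, and at 6 weeks, aged 4.5 months, with 3 libraries in each of the 4 groups. The p25 transgene is driven in neurons, not in astrocytes. No source used here names the promoter of the tau transgene. Both series used the same H3K9ac antibody from different lots, so levels were compared only within a series. Whether each library is a separate animal is not stated. The p-values weigh a difference against the spread between libraries, which was estimated over the 4 groups of a series with information from all domains. In whole tissue, more astrocytes, more acetylation per astrocyte and a change in other cell types cannot be told apart.

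Tau and wild type libraries each held 4.10 to 6.18 M reads in domains, and CK-p25 and CK libraries 0.996 to 4.13 M (M, 1e6 reads). The labels give each library's cross correlation, a measure of ChIP enrichment. At 11 months it was 0.206 to 0.257 for tau, below all wild type libraries at 0.296 to 0.342, while the means at 6 months were 0.243 and 0.245. In the CK-p25 series it averaged 0.167 in CK-p25 against 0.138 in CK libraries at 2 weeks, and 0.131 against 0.0928 at 6 weeks. Levels are given below in CPM, the reads of a domain scaled to a common number of reads in domains per library, after TMM normalization. Changes are log2 ratios with their standard error (SE) from edgeR's quasi-likelihood test on the raw counts, and a domain was called at a Benjamini-Hochberg adjusted p under 0.05 over all domains tested.

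The promoters of Gfap, Vim and Cd9 are shown because a domain of each of these genes was called higher in 3 of the 4 comparisons between a model and its control. They run 5′ to 3′ on the gene's strand, from 250 bases before to 50 after the start annotated by RefSeq on GRCm38.p6, at chr11:102897151-102897450 (minus strand), chr2:13574061-13574360 (plus strand) and chr6:125494711-125495010 (minus strand). Capitals mark the motif matches described after them.
Gfap: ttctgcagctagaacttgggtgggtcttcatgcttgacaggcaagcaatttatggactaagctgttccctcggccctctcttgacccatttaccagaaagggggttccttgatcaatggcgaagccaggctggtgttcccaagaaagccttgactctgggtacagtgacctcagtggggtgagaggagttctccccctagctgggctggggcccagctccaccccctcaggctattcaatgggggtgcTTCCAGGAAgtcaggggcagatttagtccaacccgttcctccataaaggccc
Vim: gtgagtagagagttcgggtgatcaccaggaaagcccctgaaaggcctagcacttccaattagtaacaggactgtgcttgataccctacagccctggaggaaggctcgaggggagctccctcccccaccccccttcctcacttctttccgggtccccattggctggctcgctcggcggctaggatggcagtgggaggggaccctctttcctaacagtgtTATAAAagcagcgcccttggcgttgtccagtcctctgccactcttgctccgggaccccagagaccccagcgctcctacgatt
Cd9: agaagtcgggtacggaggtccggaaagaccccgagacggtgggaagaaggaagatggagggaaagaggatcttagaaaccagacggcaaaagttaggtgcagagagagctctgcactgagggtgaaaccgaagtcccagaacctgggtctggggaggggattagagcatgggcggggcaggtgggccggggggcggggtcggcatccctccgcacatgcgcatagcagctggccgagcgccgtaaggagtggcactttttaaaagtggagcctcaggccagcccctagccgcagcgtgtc
The letters searched, on both strands, were TTCNNNGAA for STAT factors, TGANTCA for AP-1, TTGGCA for the half-site of NFI factors and TATAAA for the TATA box. The Gfap promoter held 1 STAT match, TTCCAGGAA, and such a match occurs in 8.30% of 32851 RefSeq promoters of this length. The Vim promoter held TATAAA, as do 13.6% of promoters, and the Cd9 promoter held none of the 4 motifs. AP-1 letters occur in 7.81% of all promoters and were not found in these 3. GC content was 55.7% for Gfap, 59.3% for Vim and 61.3% for Cd9. The builds of these sequences and of the domains differ, so a promoter cannot be set on a domain here.

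The windows held 1 to 15 domains each. The median width of the members was 570 bp, against 776 bp for all domains, and their median level was 4.93 CPM against 7.13 CPM. Most of the signal lay in 1 or a few broad domains per window. Slc1a2 1 (chromosome 2, 102497450 to 102504960, 7511 bp) was the strongest, with a mean of 178 CPM over the 23 libraries, or 23.7 CPM per kb. The leading domains of the other resting genes were Aqp4 1 (chromosome 18, 15559201 to 15562542), at 10.1 CPM per kb, S100b 2 (chromosome 10, 75716349 to 75718428), at 11.4 CPM per kb, and Aldh1l1 1 (chromosome 6, 90456204 to 90458158), at 7.43 CPM per kb. Among reactive genes, Gfap 1 (chromosome 11, 102741070 to 102743979) held 26.5 CPM per kb, Cd9 9 (chromosome 6, 125441388 to 125445333) 20.5, Vim 1 (chromosome 2, 13494399 to 13498369) 14.7 and Serpina3n 1 (chromosome 12, 105644282 to 105645861) 13.9. The Gfap window held another broad domain, Gfap 3 (chromosome 11, 102753732 to 102758422, 4691 bp), at 12.5 CPM per kb. No mm9 annotation was used here, so the position of a domain relative to exons or start sites is not given, and a window can hold domains that belong to a neighbouring gene. In gene order on GRCm38.p6, Gfap lies between Fam187a and Kif18b, Cd9 between Plekhg6 and Vwf, and Slc1a2 between Pamr1 and Cd44.

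Tau mice at 11 months had more H3K9ac at 6 domains of genes grouped here as reactive and less at 1 domain of a gene grouped as resting. The domains were Gfap 3, Vim 1, Serpina3n 1 and 3 domains of Cd9, raised between 1.39-fold and 1.88-fold, and Slc1a2 1, which fell to 0.843 of the wild type level. Thus 7 of the 36 members tested passed, and over all domains 12% did, with 4.4% called higher and 7.56% called lower. The median log2 change was 0.50 over the 15 reactive members and -0.01 over the 21 resting members tested, beside 0.01 over all domains. Cd9 supplied 9 of these reactive and Slc1a2 14 of these resting members, so the medians lean on those windows. The leading domains of the resting genes changed by 0.31 (Aqp4 1), 0.33 (S100b 2), 0.16 (Aldh1l1 1) and -0.25 (Slc1a2 1). At 6 months 0 of the same 36 members passed in edgeR's test, as did 0% of all domains. DESeq2 also called 0 members. In edgeR's test 2 of the 36 members, both of Aldh1l1, had an unadjusted p under 0.05. That count lies near the rate which such a threshold passes when nothing changes, and the share of all domains was not counted.

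CK-p25 mice had more H3K9ac at Gfap 3, Vim 1 and Cd9 9 at both times after induction. At 2 weeks Aqp4 1 was higher as well, and at 6 weeks Cd9 8. That is 4 of 32 members tested at 2 weeks, where 2.12% of all domains passed and 1.51% were higher, and 4 of 32 at 6 weeks, where 2.65% passed and 1.32% were higher. No member was called lower at either time, against 0.613% and 1.33% of all domains. The median log2 change of the 13 reactive members tested was 0.33 at 2 weeks and 0.58 at 6 weeks, and that of the 19 resting members 0.03 and 0.05, beside -0.00 over all domains at both times. Here Cd9 supplied 7 of the reactive and Slc1a2 12 of the resting members. At 2 and 6 weeks the leading domains of the resting genes changed by 0.56 and 0.39 (Aqp4 1) and 0.18 and 0.40 (S100b 2). Aldh1l1 1 changed by 0.51 and -0.18, and Slc1a2 1 by 0.03 and -0.18.

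**Figure D1:**
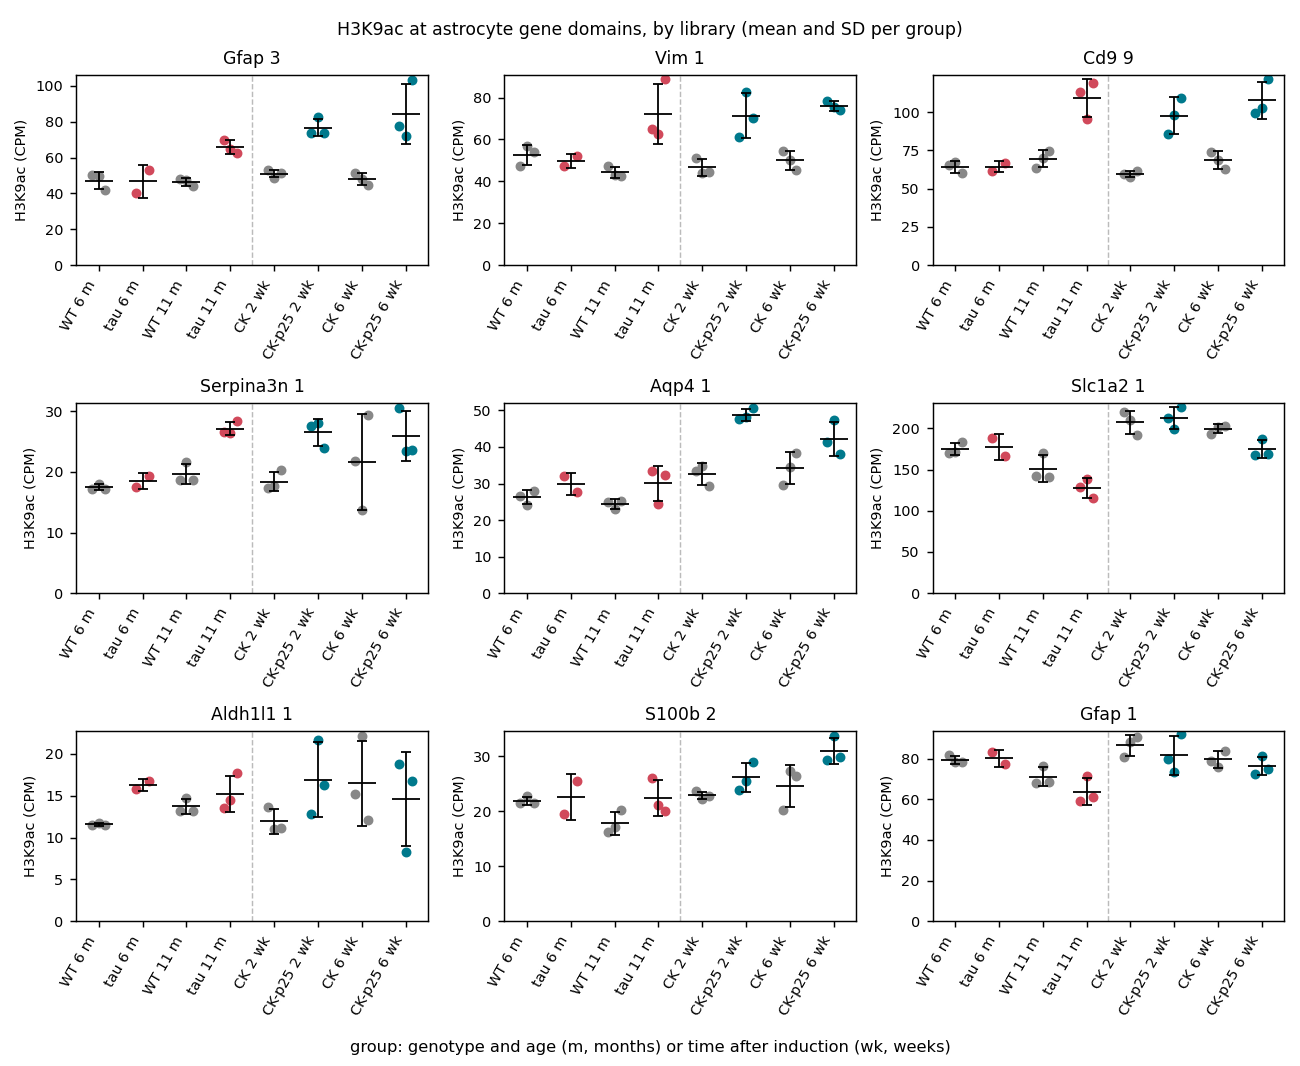
H3K9ac level (CPM, vertical axis from 0) in each library at the leading domain of each gene and at Gfap 3, by group, with points for libraries and bars for the mean and SD. Grey marks wild type and CK libraries, red tau and blue CK-p25, and the dashed line parts the series; at Gfap 3, Vim 1 and Cd9 9 every library of tau at 11 months and of CK-p25 lies above its controls.

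GFAP is the main intermediate filament protein of astrocytes and the classical stain for their reactive state. The 4 domains of its window, which need not all belong to Gfap, did not move as one. At Gfap 3 the tau libraries at 11 months read 69.9, 64.9 and 62.6 CPM and the wild type libraries 48.1, 47.6 and 44.1 CPM. All tau libraries stood above all wild type libraries, and the log2 change, with its SE, was 0.50 ± 0.08 (edgeR adjusted p = 5.85e-06). At 6 months the tau libraries read 40.3 and 53.2 CPM, on either side of the wild type libraries at 50.0, 49.5 and 41.8 CPM (log2 -0.02 ± 0.10).

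After p25 induction Gfap 3 read 73.9, 82.4 and 74.0 CPM at 2 weeks against 53.0, 48.7 and 51.7 CPM in CK littermates. At 6 weeks it read 77.5, 71.7 and 103 CPM against 51.2, 48.1 and 44.5 CPM. The groups did not overlap at either time, and the log2 changes were 0.60 ± 0.10 (edgeR adjusted p = 1.67e-05) and 0.72 ± 0.12 (adjusted p = 9.55e-06). The library at 103 CPM, CK-p25 replicate 3, is among the shallowest of the series at 1.31 M reads. Without it the change at 6 weeks was 0.61 and was still called.

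Gfap 1, the domain of the window with the highest mean over all libraries, was not called in any comparison. In tau mice at 11 months and in CK-p25 mice at 6 weeks the mean of Gfap 3, at 65.8 and 84.1 CPM, was above that of Gfap 1, at 63.8 and 76.3 CPM. It averaged 63.8 ± 6.71 CPM (SD, n = 3) in tau and 71.2 ± 4.71 CPM (n = 3) in wild type mice at 11 months (log2 -0.16 ± 0.07, edgeR adjusted p = 0.154). In the CK-p25 series its log2 changes were -0.10 ± 0.09 at 2 weeks and -0.05 ± 0.11 at 6 weeks. The narrow Gfap 4 (461 bp) held 22 to 27 reads in tau libraries at 11 months and 17 or 18 in wild type libraries, the groups not overlapping in CPM (edgeR adjusted p = 0.0967). At 6 weeks Gfap 4 had 19, 15 and 6 reads in CK-p25 libraries and 7, 1 and 0 in CK libraries. The 0 stands for a level of up to 3.01 CPM, since it was counted in 0.996 M reads, so no fold is given (edgeR adjusted p = 0.0738). Summed over the 4 domains of the window, H3K9ac was 1.10-fold higher in tau mice at 11 months, 1.15-fold in CK-p25 mice at 2 weeks and 1.28-fold at 6 weeks, each time without overlap of the groups. At 11 months the gap was narrow, with the lowest tau library at 133.9 CPM and the highest wild type library at 133.0 CPM.

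Because both are read in the same library, the ratio of reads at Gfap 3 to those at Gfap 1 needs no scaling between libraries. Differences in ChIP enrichment between libraries can still enter this ratio, and their part was not tested. This ratio and the next were chosen after the values were known and are descriptions with no test. It averaged 0.592 in wild type and 0.587 in tau mice at 6 months. At 11 months it was 0.656 ± 0.0438 (SD, n = 3) in wild type and 1.04 ± 0.139 (n = 3) in tau mice. CK-p25 mice had 0.951 against 0.592 in CK at 2 weeks, and 1.11 against 0.604 at 6 weeks. The libraries of the 3 groups with raised Gfap 3 ranged from 0.803 to 1.38, and those of the other groups from 0.485 to 0.705.

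**Figure D2:**
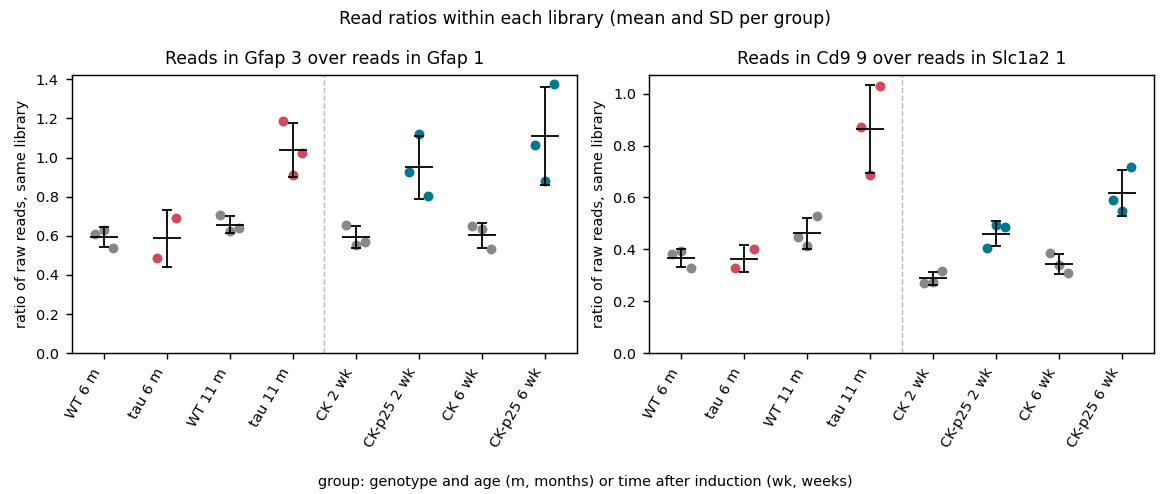
Ratio of raw reads at Gfap 3 to Gfap 1 (left) and at Cd9 9 to Slc1a2 1 (right) within each library, by group (horizontal axis), with the mean and SD. The left ratios of tau at 11 months and of CK-p25 lie at 0.803 or more, and all others at 0.705 or less.

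Vimentin, which forms filaments together with GFAP in reactive astrocytes, had a single domain in its window. At 11 months Vim 1 read 65.0, 62.8 and 88.7 CPM in tau libraries and 47.1, 43.0 and 42.8 CPM in wild type libraries. Replicate 3 of the tau group was the highest, and the other two also stood clear of all wild type libraries. The log2 change was 0.71 ± 0.10 (edgeR adjusted p = 8.59e-07), and without that library 0.53. At 6 months the levels were 49.7 ± 3.49 CPM (SD, n = 2) in tau and 52.7 ± 4.79 CPM (n = 3) in wild type mice.

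Vim 1 read 61.1, 82.6 and 70.3 CPM in CK-p25 libraries at 2 weeks against 51.3, 44.1 and 44.6 CPM in CK libraries (log2 0.62 ± 0.11, edgeR adjusted p = 1.64e-05). At 6 weeks the values were 78.5, 75.4 and 74.0 CPM against 54.6, 50.0 and 45.6 CPM, with a log2 change of 0.57 ± 0.12 (adjusted p = 0.000727). No library of one group reached the range of the other at either time.

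Cd9 encodes a tetraspanin that organises receptors and integrins in the cell membrane. Its window held 9 domains, and Cd9 9 had the smallest adjusted p of all members in tau mice at 11 months and in CK-p25 mice at 2 weeks. At 11 months it read 113, 95.2 and 119 CPM in tau libraries and 63.6, 70.2 and 74.6 CPM in wild type libraries (log2 0.66 ± 0.07, edgeR adjusted p = 4.39e-11). The lowest tau library stood well above the highest wild type library. At 6 months the means were 64.3 ± 3.54 CPM (SD, n = 2) and 64.2 ± 3.77 CPM (n = 3).

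In the CK-p25 series Cd9 9 read 85.8, 97.8 and 109 CPM at 2 weeks against 59.6, 57.6 and 61.3 CPM in CK libraries (log2 0.71 ± 0.10, edgeR adjusted p = 1.82e-08). At 6 weeks it read 99.2, 102 and 121 CPM against 74.2, 68.9 and 62.8 CPM (0.58 ± 0.10, adjusted p = 6.40e-05). Again the groups did not overlap.

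Smaller domains of the Cd9 window were also called, each in 1 comparison. In tau mice at 11 months Cd9 4 (chromosome 6, 125424026 to 125424582) rose to 5.58 ± 0.761 CPM from 2.87 ± 1.02 CPM (SD, n = 3 each; log2 0.91 ± 0.29, edgeR adjusted p = 0.0277). Cd9 5 (125426758 to 125427616) rose from 4.76 ± 1.48 to 8.02 ± 1.12 CPM (log2 0.76 ± 0.23, adjusted p = 0.0208). These levels rest on 9 to 43 reads per library. Cd9 4 lost its call when tau replicate 1 or 2 or wild type replicate 1 or 2 was left out, and Cd9 5 when tau replicate 2 or wild type replicate 1 or 3 was, with adjusted p values up to 0.179 and 0.141.

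Cd9 8 (125439620 to 125440752), which ends 635 bp before Cd9 9, rose in CK-p25 mice at 6 weeks from 6.01 ± 3.27 to 12.9 ± 2.42 CPM (log2 1.14 ± 0.31, edgeR adjusted p = 0.0194). The reads were 45, 47 and 16 against 20, 4 and 9. It was not called without CK replicate 1 or 2 or CK-p25 replicate 2, with adjusted p values up to 0.224. Summed over the Cd9 window, H3K9ac was 158 ± 12.2 CPM in tau and 107 ± 2.52 CPM in wild type mice at 11 months, which is 1.48-fold. After p25 induction the sums were 1.47-fold those of CK at 2 weeks and 1.46-fold at 6 weeks, and none of these groups overlapped.

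**Figure D3:**
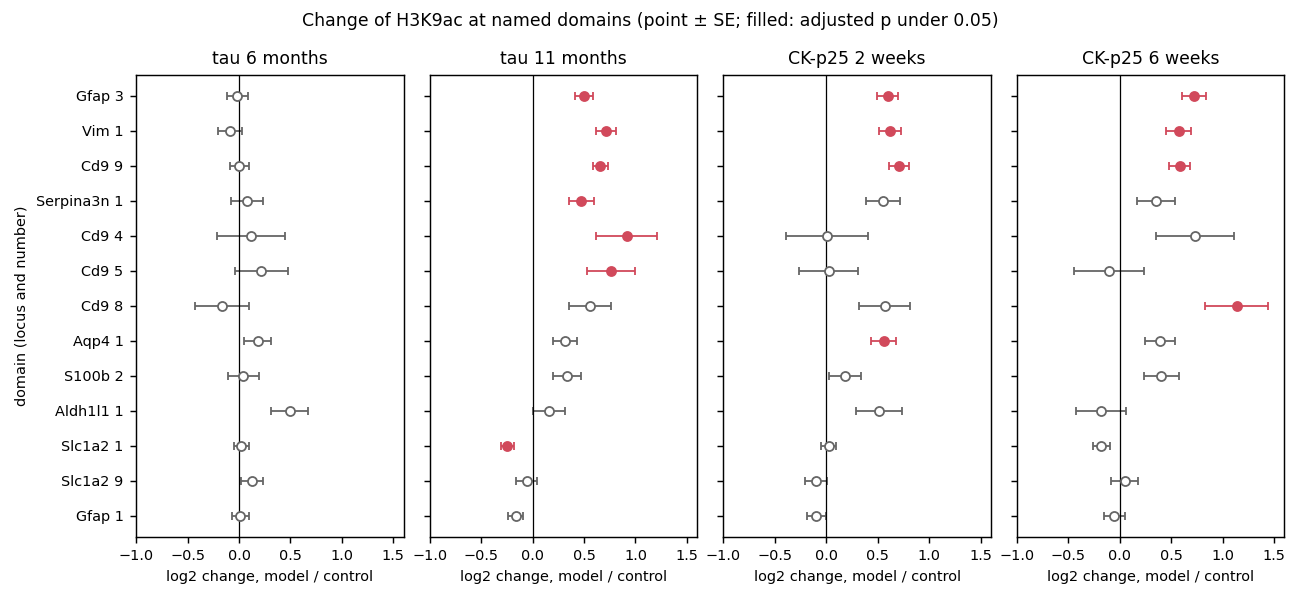
Log2 change of H3K9ac (horizontal axis, model over control) at the leading and called domains and at Slc1a2 9, in each of 4 comparisons. Points give edgeR's estimate, bars its SE and filled red points an adjusted p under 0.05. Gfap 3, Vim 1 and Cd9 9 lie between 0.50 and 0.72 in the 3 comparisons other than tau at 6 months.

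Serpina3n encodes a secreted serine protease inhibitor and is a widely used marker of reactive astrocytes in mice. Serpina3n 1 read 26.6, 26.4 and 28.3 CPM in tau libraries at 11 months and 18.6, 21.6 and 18.7 CPM in wild type libraries. All tau libraries were higher, with a log2 change of 0.47 ± 0.12 (edgeR adjusted p = 0.00431). At 2 weeks after p25 induction the groups also stood apart, at 27.5, 28.1 and 23.9 CPM against 17.4, 17.6 and 20.3 CPM, but the adjusted p was 0.0589 (log2 0.55 ± 0.17). At 6 weeks the CK libraries spread from 13.6 to 29.4 CPM and overlapped the CK-p25 libraries, at 23.5 to 30.6 CPM (log2 0.35 ± 0.19, adjusted p = 0.440).

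Aquaporin 4, the water channel of astrocyte endfeet, had a single domain. Aqp4 1 read 47.6, 48.1 and 50.8 CPM in CK-p25 libraries at 2 weeks and 33.5, 34.9 and 29.4 CPM in CK libraries. The groups were well apart, with a log2 change of 0.56 ± 0.12 (edgeR adjusted p = 0.00194). At 6 weeks the means were 42.3 ± 4.63 CPM and 34.2 ± 4.39 CPM (SD, n = 3 each), the groups overlapped and the change was 0.39 ± 0.14 (adjusted p = 0.159). Tau mice at 11 months had 30.0 ± 4.84 CPM against 24.4 ± 1.26 CPM in wild type (log2 0.31 ± 0.12, adjusted p = 0.0640), with 1 tau library inside the wild type range.

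Slc1a2 encodes GLT-1, the main glutamate transporter of the forebrain, which astrocytes hold in large amounts. Slc1a2 1 read 129, 138 and 115 CPM in tau libraries at 11 months and 143, 170 and 141 CPM in wild type libraries. Every tau library was lower, the gap between the groups was small, and the log2 change was -0.25 ± 0.07 (edgeR adjusted p = 0.00725). The call was lost without tau replicate 3 (-0.18, adjusted p = 0.0954) and without wild type replicate 2 (-0.15, adjusted p = 0.180). With offsets fitted by loess on mean abundance it was -0.14, with an adjusted p of 0.139. DESeq2 did not call Slc1a2 1 either.

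In CK-p25 mice Slc1a2 1 averaged 212 ± 13.6 CPM at 2 weeks against 208 ± 14.0 CPM in CK (log2 0.03 ± 0.07). At 6 weeks it was 175 ± 10.9 CPM against 200 ± 5.49 CPM (n = 3 each), with no overlap and a log2 change of -0.18 ± 0.08 that was not called (edgeR adjusted p = 0.313). None of the other 14 domains of the window was called in any comparison. The second in strength, Slc1a2 9 (chromosome 2, 102513500 to 102518377), had 29.9 ± 1.37 CPM in tau and 31.1 ± 1.34 CPM in wild type mice at 11 months. Slc1a2 8 was too low to be tested in either series, and Slc1a2 4 and 15 and Cd9 1 and 7 in the CK-p25 series.

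S100b encodes a calcium-binding protein secreted by astrocytes, and Aldh1l1 an enzyme of folate metabolism used as a marker of astrocytes in general. No domain of either was called. S100b 2 had log2 changes of 0.33 ± 0.14 in tau mice at 11 months (edgeR adjusted p = 0.100), 0.18 ± 0.16 in CK-p25 mice at 2 weeks and 0.40 ± 0.17 at 6 weeks (adjusted p = 0.264). Its groups did not overlap at 2 and 6 weeks, where it read 29.4 to 33.7 CPM against 20.2 to 27.3 CPM at the later time. Aldh1l1 1 had 16.3 ± 0.717 CPM (SD, n = 2) in tau and 11.6 ± 0.183 CPM (n = 3) in wild type mice at 6 months, the log2 change of 0.49 ± 0.18 having an unadjusted p of 0.00820 and an adjusted p of 1.0. At 11 months the means were 15.2 and 13.7 CPM and the groups overlapped.

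**Figure D4:**
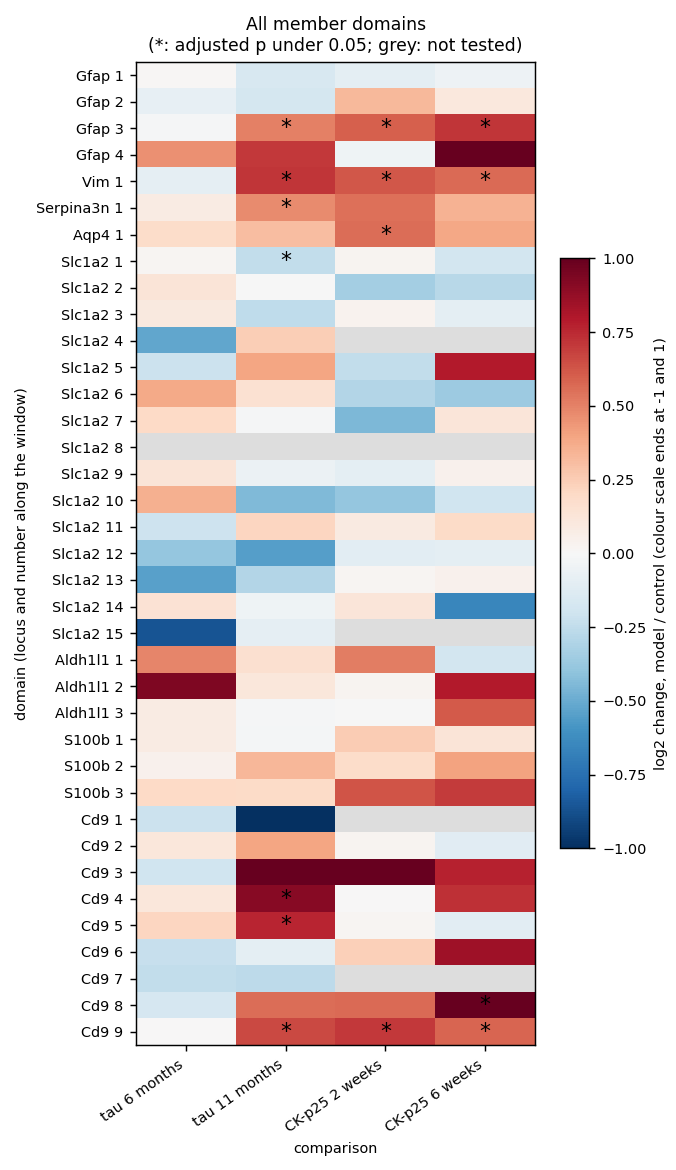
Log2 change of H3K9ac for all 37 member domains (rows, in order along each window) in 4 comparisons (columns), from blue for lower to red for higher in the model, with colours ending at -1 and 1, stars for an adjusted p under 0.05 and grey for domains not tested. Of the 9 domains with a star, 7 belong to reactive genes, and Gfap 3, Vim 1 and Cd9 9 carry 3 stars each.

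Over the 4 comparisons 9 members were called at least once and 28 were not. The share of all domains called at least once was not counted. In the single comparisons 0% of all domains passed for tau at 6 months and 12% at 11 months. For CK-p25 it was 2.12% at 2 weeks and 2.65% at 6 weeks. Complete separation of the libraries was more frequent than a call but is also frequent among all domains. In tau mice at 11 months, 10 of 36 members lay above all wild type libraries, against 11.2% of all domains, and 2 lay below, against 13.8%. The 10 were Gfap 3 and 4, Vim 1, Serpina3n 1 and 6 of the 9 domains of Cd9. At 6 months 3 members lay above (9.63% of all domains) and 2 below (10.1%). In CK-p25 mice 7 of 32 lay above at 2 weeks and 0 below, against 8.25% and 7.46% of all domains. At 6 weeks 10 lay above and 2 below, against 8.81% and 8.46%.

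Whether the change of a domain itself differed with age was tested in the tau series by the difference between the 11-month and the 6-month changes. It passed at 3 of 36 members, all higher at 11 months, where 4.23% of all domains passed, 1.02% higher and 3.21% lower. The log2 change of Vim 1 was larger by 0.80 ± 0.15 at 11 months (edgeR adjusted p = 0.000569), that of Cd9 9 by 0.66 ± 0.11 (adjusted p = 4.38e-05) and that of Gfap 3 by 0.52 ± 0.13 (adjusted p = 0.0104). For Gfap 3 the call rests on few libraries at 6 months, since without tau replicate 1 the difference was 0.32 (adjusted p = 0.365), and it also ended without wild type replicate 1 or 2. Serpina3n 1 differed by 0.39 ± 0.20 (adjusted p = 0.345) and Slc1a2 1 by -0.27 ± 0.10 (adjusted p = 0.122), and neither passed. Age and sex cannot be told apart in this difference.

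Between 6 and 2 weeks after induction the change differed at 0 of 32 members in edgeR's test. An unadjusted p under 0.05 was found at 2 of them, near the rate which such a threshold passes when nothing changes. DESeq2 called 0 members, and in edgeR's test 0.00524% of all domains passed. For Gfap 3 the difference was 0.12 ± 0.16, for Vim 1 -0.05 ± 0.16, for Cd9 9 -0.13 ± 0.14 and for Aqp4 1 -0.17 ± 0.19 on the log2 scale. Aqp4 1, called at 2 weeks and not at 6 weeks, was thus not shown to differ between these times.

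At Gfap 3, Vim 1 and Cd9 9 the raised groups had the highest means of their series, while the order of the other groups differed between the domains. For Cd9 9 the tau series ran from 64.2 CPM in wild type and 64.3 CPM in tau mice at 6 months through 69.5 CPM in wild type to 109 CPM in tau mice at 11 months, and the first 3 of these groups overlapped. The CK-p25 series ran from 59.5 CPM in CK at 2 weeks and 68.6 CPM in CK at 6 weeks to 97.7 and 108 CPM in CK-p25 at 2 and 6 weeks, and the last 2 overlapped. At Gfap 3 the other 3 groups of the tau series lay between 46.6 and 47.1 CPM and overlapped, and tau at 11 months at 65.8 CPM. CK at 2 weeks, at 51.1 CPM, was there above CK at 6 weeks, at 47.9 CPM, and these groups overlapped. At Vim 1 the tau series ran from 44.3 CPM in wild type at 11 months through 49.7 CPM in tau and 52.7 CPM in wild type mice at 6 months to 72.1 CPM in tau mice at 11 months. The wild type libraries at 11 months lay below all libraries of both 6-month groups, by a narrow margin. In the CK-p25 series Vim 1 averaged 46.7 and 50.1 CPM in CK and 71.4 and 76.0 CPM in CK-p25 at 2 and 6 weeks.

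At 11 months the quality measure of the libraries moved with the genotype, as given above. With cross correlation as a covariate, Cd9 9 alone of the 7 members was still called, at a log2 change of 0.61 (edgeR adjusted p = 0.0207). Gfap 3 and Vim 1 had estimates of 0.57 and 0.68 with adjusted p values of 0.101 and 0.148, and Serpina3n 1 had 0.35 (0.671). Slc1a2 1 stood at -0.29 (0.450), Cd9 4 at 0.91 (0.631) and Cd9 5 at 0.38 (0.850). Covariate and genotype run together at this age, which leaves little to estimate each, and the part of ChIP enrichment in these changes was not tested further. In the CK-p25 series the same covariate left all 4 calls at each time, with Gfap 3 at 0.65 and 0.79.

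Within a library, reads at Cd9 9 relative to Slc1a2 1, a reactive and a resting gene with strong domains, averaged 0.864 ± 0.171 in tau and 0.462 ± 0.0590 in wild type mice at 11 months (SD, n = 3 each). At 6 months the ratios were 0.364 and 0.368. CK-p25 mice had 0.460 against 0.288 at 2 weeks and 0.618 against 0.344 at 6 weeks. In these 3 comparisons with a gap, all libraries of the model lay above all of its control. Differences in ChIP enrichment can enter this ratio as well, and their part was not tested.

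The surroundings of the windows were compared with the windows themselves. Of the 12 domains tested within 1 Mb around Vim 1, the 11-month tau comparison called 0 higher and 1 lower. Over all domains it called 4.4% higher and 7.56% lower, and 12 domains are too few to be set apart from these shares. At each time after p25 induction 0 of 11 were higher and 1 lower. The shares of all domains were 1.51% higher and 0.613% lower at 2 weeks, and 1.32% and 1.33% at 6 weeks. Around Gfap, 3 of 135 were higher and 13 lower at 11 months, and the median log2 change was 0.00. Around Cd9, 10 of 74 were higher and 6 lower at 11 months, and CK-p25 mice at 2 weeks had 6 of 65 higher and 1 lower, beside the 4.4% and 1.51% of all domains called higher. At 6 weeks 4 of 65 were higher and 0 lower around Cd9. Around Aqp4, tau mice at 11 months had 0 of 19 higher and 3 lower, and CK-p25 mice had 1 of 18 higher at each time. For Slc1a2, 4 of 48 were higher and 1 lower at 11 months. In the same comparison 2 of 49 were higher and 2 lower around Serpina3n, and 0 of 65 higher and 2 lower around S100b. Around Aldh1l1 4 of 66 were higher and 2 lower, with a median log2 change of 0.11.

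**Figure D5:**
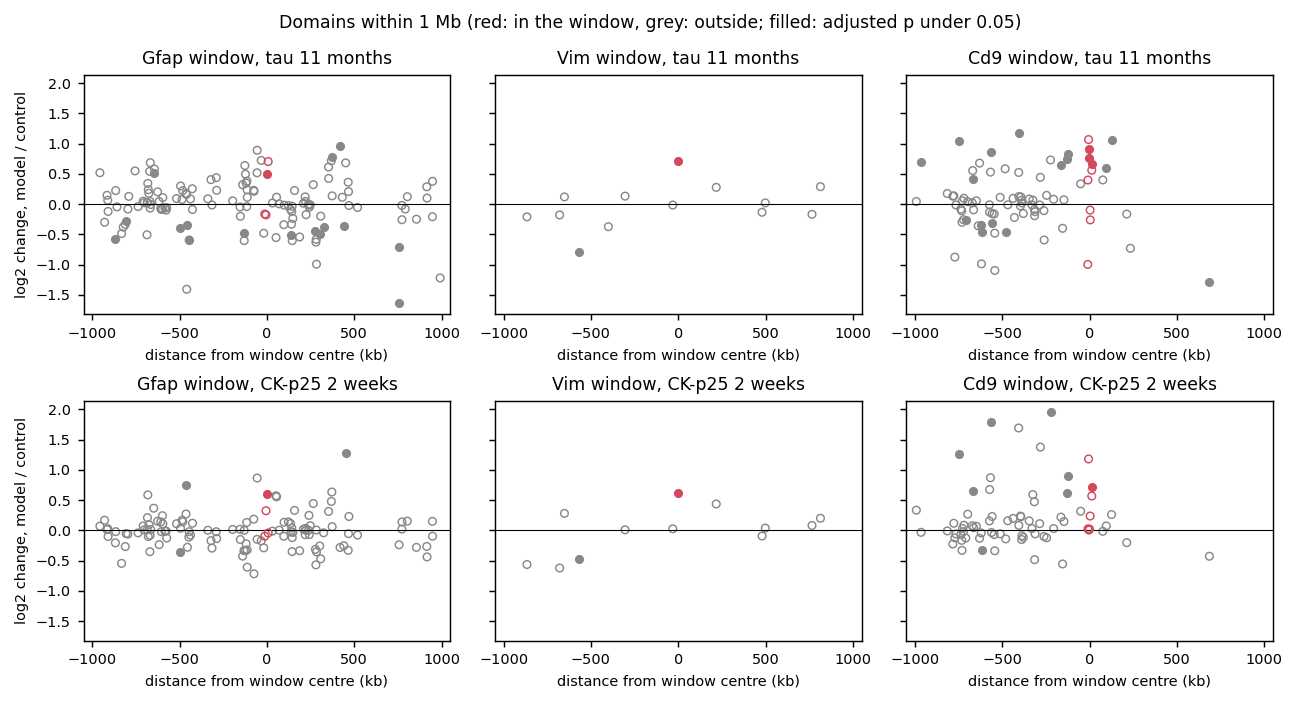
Log2 change of H3K9ac (vertical axis) at domains by distance from the centre of the Gfap, Vim and Cd9 windows (horizontal axis, kb), in tau mice at 11 months (top) and CK-p25 mice at 2 weeks (bottom), with red for domains in the window, grey for others and filled points for an adjusted p under 0.05. The Vim domain is the only filled red or grey point above 0 in its panels, while 10 grey points around Cd9 are filled above 0 in the upper row.

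Domains elsewhere in the genome whose level followed a member most closely were found by the mean of Pearson's r within the tau series (11 libraries) and within the CK-p25 series (12 libraries), over 26390 domains of at least 5 CPM and more than 1 Mb from the windows. The libraries share their groups and their depth, so r describes likeness and carries no test. For Cd9 9 the closest was on chromosome 17 from 35515879 to 35517379, with r of 0.978 and 0.962. For Vim 1 it was on chromosome 15 from 74761667 to 74764197 (0.909 and 0.974), and for Gfap 3 on chromosome 7 from 106852192 to 106855888 (0.867 and 0.962). Slc1a2 1 was closest to a domain on chromosome 14 from 65192548 to 65196048 (0.898 and 0.931). The leading domains of Aldh1l1 and S100b had no partner above a mean r of 0.712 and 0.817.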

How the data were processed

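H3K9ac ChIP-seq libraries of mouse hippocampus were analysed from the count matrix that the authors deposited, whose read counts per domain are raw, and from the deposited list of domain positions, whose starts and ends are other values in bases. The submitters' processing notes name BWA, Picard 1.1175 and MACS2, and build mm9; the sources used here give neither their roles nor their settings. As the series' design text states, domains are a common set over samples and input DNA served in their calling; the 22 input libraries have no column and were not analysed here. Per the labels' protocols sequencing was single-end, so duplicates of one molecule are not fully separable, and a limit from a count of 0 covers counting error only.

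Domains overlapping the 8 windows were kept as members, with coordinates 1-based. The members and lists were chosen with earlier results of these data known. The test on counts of all domains was that of edgeR 4.0.16 under R 4.3.3 (TMM, filterByExpr by group, robust quasi-likelihood F test, two-sided, Benjamini-Hochberg over all domains, threshold 0.05), the 11 tau and the 12 CK-p25 libraries apart, with group means only. The SE is the size of the log2 change over the square root of F. Named in full were the domain of highest mean CPM in each window and every member called in any comparison; Gfap 1 and 4, Slc1a2 9, S100b 2 and Aldh1l1 1 in comparisons without a call are given as leading domains or were chosen after their values were seen. Summed levels, read ratios and likeness carry no test. The fits were tested on simulated data. Counts of the 22 replicate pairs differed beyond sampling noise (chi-square over its degrees of freedom 1.10 to 1.88, domains of 20 reads or more). Alternatives were other scalings, no low-count filter, DESeq2 1.42.0, a threshold of 0.01, a replicate block, cross correlation as a covariate, the compared groups alone, and libraries left out. Promoters were matched by symbol in RefSeq tables of GRCm38.p6.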

Additional observations from a re-analysis of the deposited data

Results flagged for a closer look

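The change of H3K9ac in tau mice differed between 11 and 6 months at 3 domains of genes grouped here as reactive, in edgeR's test of the difference itself. At Vim 1 the change was 0.80 higher on the log2 scale at 11 months, at Cd9 9 it was 0.66 higher and at Gfap 3 it was 0.52 higher. At 11 months every tau library lay above every wild type library at each of these domains, while at 6 months the groups overlapped. The mice were females at 6 months and males at 11 months, so age and sex cannot be told apart. Cross correlation was lower in every tau than in every wild type library at 11 months, while its means were 0.243 and 0.245 at 6 months, and its part in these differences was not tested further. With it as a covariate the differences were 0.77, 0.61 and 0.59 in the same order, and none passed, with adjusted p values of 0.187, 0.0790 and 0.211.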

How the results depend on the processing

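All 286 values of the 18 named changes under the alternatives kept their sign, and 8 of the 18 passed under every alternative: Gfap 3, Vim 1 and Cd9 9 at 2 and at 6 weeks, Aqp4 1 at 2 weeks and Cd9 9 in tau mice at 11 months. At 11 months the DESeq2 Wald test called 4 members and the fit with cross correlation as a covariate 1, against 7. With that covariate 0 members differed between ages, against 3. The DESeq2 Wald test did not call Slc1a2 1, Cd9 4 and Cd9 5 at 11 months, nor Cd9 8 at 6 weeks. Library totals in place of TMM called 10 members at 11 months and loess offsets 8. The shares of all domains called under the alternatives are not given here. Counts of members alone thus do not show whether members moved more than other domains. Leaving out each library in turn gave 5 to 9 members at 11 months, 2 to 4 for the difference between ages, 4 to 4 at 2 weeks and 3 to 4 at 6 weeks, and 0 to 0 for tau at 6 months and for the difference between times. Without both shallow libraries at 6 weeks 4 members were called. Whether the replicate numbers pair the samples was not settled. Deviations of same-numbered libraries correlated at -0.01 to 0.05, but with 2 or 3 libraries per group such values cannot exclude a pairing. With a replicate block the members called were 0, 7 and 3 in the tau series and 4, 4 and 0 in the CK-p25 series, as without it. The cause of these differences between settings was not tested. The members had a lower median width and level than all domains, and the median standard error of a log2 change was 0.28 over members and 0.22 over all domains at 11 months, and 0.36 and 0.28 at 6 weeks. A change of a low domain that was not called may not have been detectable at this depth.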
